A study of Mus musculus with 12 samples.

Results

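Transcripts of 8 leukocyte adhesion molecules were followed across the RNA-seq libraries of primary mouse brain endothelial cells (BECs): Sele, Selp, Icam1, Icam2, Vcam1, Alcam, Mcam and Cd99l2. The members were taken by gene symbol, and all 8 were among the 27321 genes listed in both expression tables, of 29965 genes under normoxia/normoglycemia and 29775 after oxygen and glucose deprivation. BECs were cultured from brain microvessels of Cort+/+ mice or of Cort-/- mice, which lack the neuropeptide cortistatin in every cell, on a C57BL/6J background; the methods give an age of 8 weeks for the Cort+/+ donors. The cultures were enriched with puromycin and kept either for 24 h under normoxia/normoglycemia (NX/NG, 21% O2) or for 4 h without glucose at 1% O2 and then 20 h with oxygen restored (OGD-R), and each replicate was a pool from 3 mice. The labels also name an ischemic stroke model as disease state for every sample, whereas the methods describe these cultures. Of 12 samples listed, 10 had a column: Cort+/+ replicates 1, 2 and 3 and Cort-/- replicates 1 and 2 under NX/NG, and Cort+/+ replicates 1, 2 and 3 and Cort-/- replicates 1 and 3 under OGD-R. No leukocytes were added, so the values describe adhesion molecule transcripts in endothelial cultures and not adhesion itself.

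Leukocytes leave the blood in steps. The selectins P-selectin (Selp) and E-selectin (Sele) catch passing cells by sugars on their surface, members of the immunoglobulin superfamily such as ICAM-1, ICAM-2 and VCAM-1 bind leukocyte integrins and hold the cells, and junctional molecules such as CD99L2 let them through. Resting brain endothelium is known for low adhesion molecule levels compared with endothelium of many other tissues, and Sele, Icam1 and Vcam1 are textbook targets of the transcription factor NF-kB after cytokine stimulation. ALCAM and MCAM serve leukocyte entry at the blood-brain barrier, ALCAM through its partner CD6 on T cells, and both are also made by other cells of the vessel wall.

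Each library held 12386048 to 12390428 reads on genes. The deposited values were RPKM, that is reads on a gene relative to its length in kilobases and to the size of the library, scaled by the authors separately in each environment, so genotype comparisons use them as deposited, and comparisons between environments use RPKM recomputed from the recovered reads with all 10 libraries scaled together. The targeted gene, Cort, was covered by 1 or 2 reads in each Cort+/+ library under NX/NG and by 1 read in 1 of the Cort+/+ libraries after OGD-R. The other 6 libraries, among them every Cort-/- one, had 0, and such counts cannot check the genotype by level. Ribosomal RNA (Rn18s-rs5) made up 7.64% to 15.8% of reads except in 2 OGD-R libraries, where it was nearly absent, at 0.0951% (Cort-/- replicate 3) and 0.0775% (Cort+/+ replicate 1). The epithelial keratin Krt8 reached 18.7 RPKM in Cort+/+ NX/NG replicate 2, 11.9 RPKM in Cort-/- OGD-R replicate 1 and 2.57 RPKM in Cort-/- NX/NG replicate 2, and was at most 0.443 RPKM elsewhere. The 8 endothelial markers summed to 870 to 1351 RPKM, so the endothelial label holds, but the 4 smooth muscle markers summed to 995 to 1777 RPKM in the same libraries. That sum was mostly Acta2 and Tagln, at means of 889 and 587 RPKM over the jointly scaled libraries. Cnn1 had a mean of 11.3 RPKM and Myh11 group means of 0.667 to 1.82 RPKM. The common leukocyte gene Ptprc was at most 0.0320 RPKM and the 4 platelet markers summed to at most 1.43 RPKM, so these transcripts of adherent blood cells were at or near 0. The 6 macrophage and microglia markers summed to 2.60 to 4.28 RPKM, most of it Csf1r at 1.14 to 1.97 RPKM and Cd68 at 1.10 to 2.22 RPKM, about the level of Sele. Under NX/NG these sums were 3.84 to 4.06 RPKM in Cort-/- and 2.60 to 3.15 RPKM in Cort+/+ libraries. Csf1r overlapped there, at 1.57 and 1.67 RPKM in Cort-/- against 1.14 to 1.71 RPKM in Cort+/+ libraries. After OGD-R the sums overlapped, at 3.26 to 3.39 RPKM in Cort-/- and 2.91 to 4.28 RPKM in Cort+/+ libraries.

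All 8 members were expressed, over a range of levels that differed far more between genes than between groups. Mcam averaged 177 RPKM over the 10 jointly scaled libraries, above 98.5% of the 13789 genes whose mean reached 1 RPKM. It was followed by Vcam1 at 67.0 RPKM, Icam2 at 42.2 RPKM and Icam1 at 36.2 RPKM. Cd99l2 averaged 13.7 RPKM, Selp 7.38 RPKM and Alcam 7.29 RPKM, and Sele was lowest at 1.87 RPKM with 36 to 123 reads per library. Mcam alone made up 50.2% of the summed level of the 8 genes, and both selectins together a small remainder, 2.09% for Selp and 0.530% for Sele.

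The members also differed in how much they varied between libraries. The coefficient of variation over the 10 libraries was 46.2% for Selp, 34.7% for Sele, 30.0% for Icam1 and 27.1% for Alcam, against 12.5% to 14.3% for Vcam1, Icam2 and Mcam and 6.05% for Cd99l2. The median over those 13789 genes was 11.7%. Selp thus spanned 8.99-fold between its lowest and its highest library, whereas Cd99l2 spanned 1.25-fold.

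**Figure D1:**
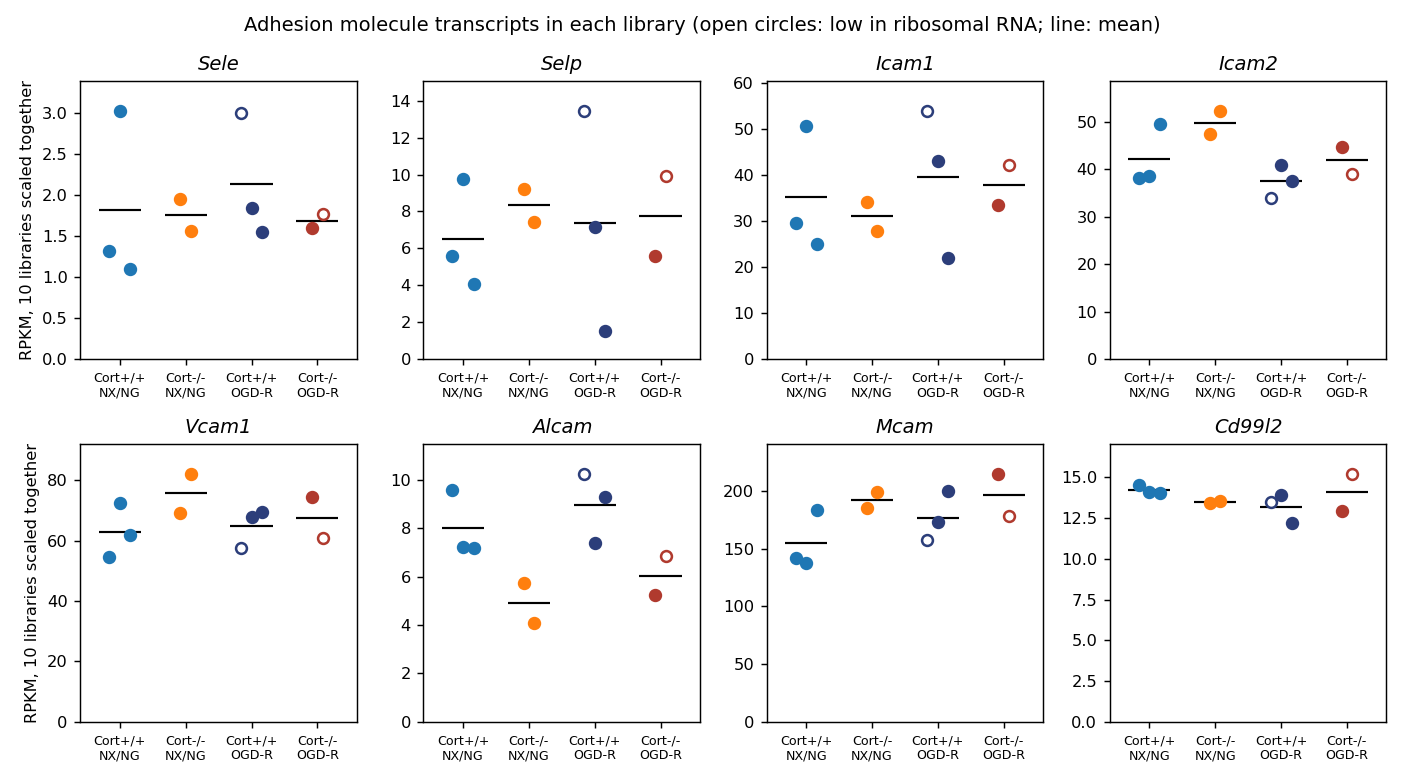
RPKM of each member in each library (circles, y axis from 0, 10 libraries scaled together) by group on the x axis, with the group mean as a line and the 2 libraries low in ribosomal RNA as open circles. In Alcam the Cort-/- circles lie below the Cort+/+ circles in both environments, while in Sele, Selp and Icam1 the Cort+/+ circles spread above and below the Cort-/- ones.

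The first question was whether the lack of cortistatin shifts these transcripts. Under NX/NG, limma (FDR of at most 0.05 over all genes) called 0 of the 8 members, and Alcam alone, 1 of 8, passed an unadjusted p of 0.05. The background over all 29965 genes was 0% at this FDR and 8.39% by the unadjusted p. After OGD-R the same test called 0 of 8 members, again with Alcam alone at an unadjusted p under 0.05, against 0% and 3.42% of all 29775 genes. limma-voom on the recovered reads also called 0 members in both environments. Under NX/NG it placed 4 members below an unadjusted p of 0.05 (Alcam, Mcam, Vcam1 and Icam2), and after OGD-R 1. The share of all genes below that p by limma-voom is not given here, so these counts have no background to be read against. The median log2 difference of the members, Cort-/- minus Cort+/+, was 0.16 under NX/NG and 0.07 after OGD-R, beside -0.01 over all genes in either environment. The design has 2 libraries against 3, which limits every one of these tests.

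E-selectin transcripts did not separate the genotypes. Sele was 1.29, 2.95 and 1.07 RPKM in the Cort+/+ NX/NG replicates and 1.89 and 1.51 RPKM in the Cort-/- ones. After OGD-R it was 3.08, 1.89 and 1.58 RPKM in Cort+/+ and 1.64 and 1.81 RPKM in Cort-/-. Both Cort-/- pairs lay inside the Cort+/+ range, and 1 Cort+/+ library in each environment stood above all others. The log2 difference was 0.07 (SE 0.45, limma FDR = 0.956) under NX/NG and -0.27 (SE 0.31, FDR = 0.978) after OGD-R.

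P-selectin, which endothelium stores in granules and can also make anew, showed the widest spread. Selp was 5.47, 9.54 and 3.99 RPKM in Cort+/+ and 8.97 and 7.22 RPKM in Cort-/- BECs under NX/NG, and 13.8, 7.35 and 1.54 RPKM in Cort+/+ and 5.74 and 10.2 RPKM in Cort-/- BECs after OGD-R. Within the Cort+/+ OGD-R group alone the highest library had 837 reads and the lowest 81. Their counting intervals, 12.9 to 14.8 RPKM and 1.22 to 1.91 RPKM (95%, exact Poisson, counting error only), were far apart, so the spread between these libraries was larger than counting error. The log2 difference between genotypes was 0.43 (SE 0.38, limma FDR = 0.771) under NX/NG and 0.49 (SE 0.91, FDR = 0.978) after OGD-R. The latter was -0.39 without Cort+/+ replicate 3 and 1.15 without Cort+/+ replicate 1, so a single library set its sign or its size.

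ICAM-1, the integrin ligand that firm adhesion and crawling depend on, behaved like the selectins. Icam1 was 28.9, 49.5 and 24.4 RPKM in Cort+/+ and 33.1 and 27.1 RPKM in Cort-/- BECs under NX/NG, and 55.3, 44.1 and 22.4 RPKM in Cort+/+ and 34.3 and 43.3 RPKM in Cort-/- BECs after OGD-R. The groups overlapped in both environments. The log2 difference was -0.13 (SE 0.32, limma FDR = 0.915) under NX/NG and 0.02 (SE 0.39, FDR = 0.993) after OGD-R.

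ICAM-2 and VCAM-1 were steadier, with higher means in Cort-/- BECs but overlapping groups. ICAM-2 is a constitutive integrin ligand of endothelium, and Icam2 was 37.4, 37.6 and 48.2 RPKM in Cort+/+ and 46.1 and 50.8 RPKM in Cort-/- BECs under NX/NG, and 35.0, 41.9 and 38.5 RPKM against 46.0 and 40.1 RPKM after OGD-R. VCAM-1 binds the integrin VLA-4, and Vcam1 was 53.2, 70.7 and 60.2 RPKM in Cort+/+ and 67.2 and 79.9 RPKM in Cort-/- BECs under NX/NG. After OGD-R Vcam1 was 59.2, 69.4 and 71.4 RPKM in Cort+/+ and 76.2 and 62.4 RPKM in Cort-/- BECs. The log2 differences under NX/NG were 0.25 (SE 0.13, limma FDR = 0.681) for Icam2 and 0.26 (SE 0.14, FDR = 0.681) for Vcam1, and after OGD-R they were 0.16 (SE 0.12) and 0.05 (SE 0.14), both with an FDR of 0.978.

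Alcam was the only member whose genotype groups did not overlap in both environments. It was 9.36, 7.09 and 7.01 RPKM in the Cort+/+ and 5.58 and 3.97 RPKM in the Cort-/- replicates under NX/NG. After OGD-R it was 10.5, 7.57 and 9.53 RPKM in Cort+/+ and 5.39 and 7.03 RPKM in Cort-/- BECs. With all 10 libraries scaled together, the 4 Cort-/- libraries lay between 4.08 and 6.85 RPKM and the 6 Cort+/+ libraries between 7.20 and 10.3 RPKM. The share of all genes with such a gap in both environments, or over the 10 libraries, was not computed. Group means were 4.77 ± 1.14 RPKM (SD, n = 2) against 7.82 ± 1.33 RPKM (SD, n = 3) under NX/NG, a log2 difference of -0.71 (SE 0.20, fold 0.613, unadjusted p = 0.0169, limma FDR = 0.462). After OGD-R they were 6.21 ± 1.16 RPKM (SD, n = 2) against 9.22 ± 1.51 RPKM (SD, n = 3), a log2 difference of -0.56 (SE 0.19, fold 0.678, unadjusted p = 0.0280, limma FDR = 0.978). The difference passed the unadjusted threshold in both environments but not the correction over all genes, and limma-voom gave an FDR of 0.103 and 0.934.

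Gaps between groups were common in this small design. Under NX/NG, 3 of 8 members did not overlap (Alcam, Mcam and Cd99l2), where 32.7% of the 14220 genes that reached 1 RPKM in 2 or more libraries did not. After OGD-R it was Alcam alone, 1 of 8, where the share was 16.2% of 14325 genes. Leaving out 1 library in turn moved the Alcam log2 difference between -0.47 and -0.95 under NX/NG and between -0.37 and -0.75 after OGD-R, and its sign stayed negative each time. Its unadjusted limma p was above 0.05 under NX/NG without Cort-/- replicate 2 (difference -0.47), and after OGD-R without Cort-/- replicate 1 (-0.37), Cort-/- replicate 3 (-0.75), Cort+/+ replicate 1 (-0.46) or Cort+/+ replicate 3 (-0.53). The same held after OGD-R without both libraries low in ribosomal RNA, where the difference was -0.65.

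The summed markers of other vessel wall cells were also lower in Cort-/- BECs, mainly under NX/NG, but not every marker was. Under NX/NG, the 5 fibroblast markers summed to 62.8 to 93.6 RPKM in Cort-/- and 157 to 224 RPKM in Cort+/+ libraries, and the 6 pericyte markers to 7.59 to 10.2 RPKM and 17.9 to 21.4 RPKM. Among them Col1a1 had a log2 difference of -1.35 (SE 0.24, limma FDR = 0.252) and the pericyte proteoglycan Cspg4 of -1.91 (SE 0.29, FDR = 0.212). After OGD-R the fibroblast sums were 161 to 206 RPKM in Cort-/- and 169 to 279 RPKM in Cort+/+ libraries, and the pericyte sums 15.3 to 17.6 RPKM and 17.4 to 22.9 RPKM. The smooth muscle sums were 1299 to 1556 RPKM against 1449 to 1777 RPKM under NX/NG and 995 to 1482 RPKM against 1332 to 1694 RPKM after OGD-R. The fibroblast sum is mostly Col1a1 and Col1a2, and Dcn was low, at a mean of 1.02 RPKM. Pdgfra, at a lower level still, went the other way under NX/NG without overlap, at 0.485 and 0.706 RPKM in Cort-/- against 0.366, 0.319 and 0.320 RPKM in Cort+/+ libraries, a log2 difference of 0.66 (SE 0.29, limma FDR = 0.645). Of the smooth muscle markers, Myh11 and Cnn1 overlapped between genotypes under NX/NG, with log2 differences of 0.29 (SE 0.23, FDR = 0.731) and -0.01 (SE 0.19, FDR = 0.983). The part of these markers in the Alcam difference was not tested, and in such cultures fewer cells of a type and less RNA per cell cannot be told apart.

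**Figure D2:**
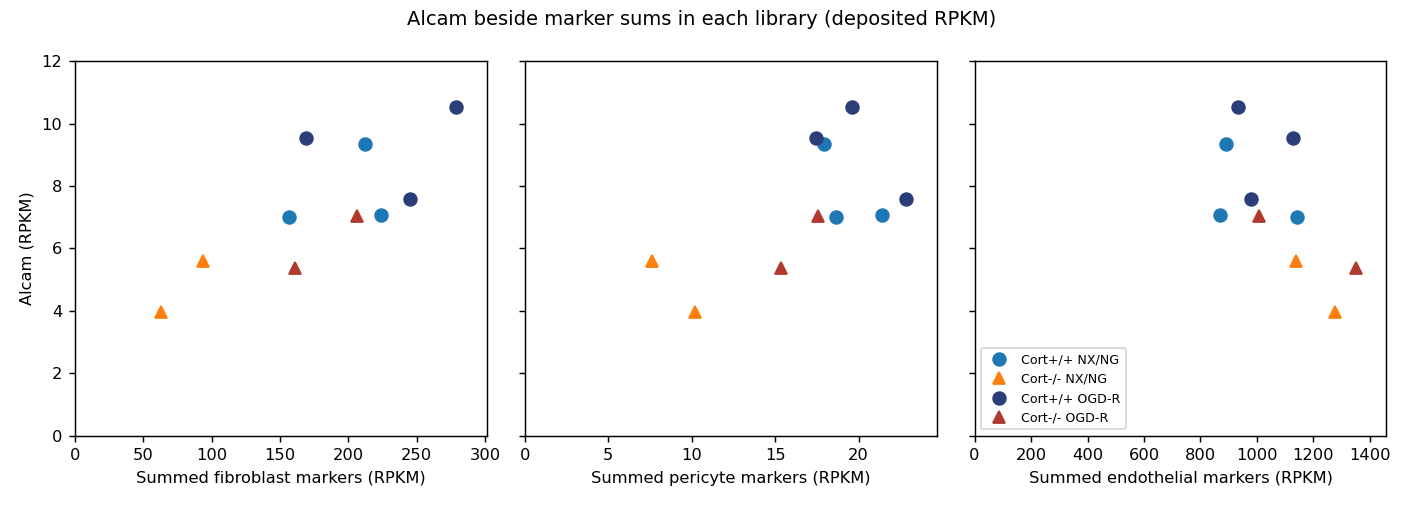
Alcam (y axis, deposited RPKM) against the summed fibroblast, pericyte and endothelial markers (x axes, deposited RPKM) in the 10 libraries, with circles for Cort+/+ and triangles for Cort-/-. The 2 Cort-/- NX/NG libraries are lowest in both fibroblast and pericyte sums, at most 93.6 and 10.2 RPKM, while the Cort-/- OGD-R libraries lie near the Cort+/+ ones in these sums.

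MCAM, a junctional molecule of endothelium that pericytes and smooth muscle cells also carry, went the other way under NX/NG. Mcam was 139, 135 and 179 RPKM in Cort+/+ and 180 and 193 RPKM in Cort-/- BECs, groups that just failed to touch, with a log2 difference of 0.32 (SE 0.14, unadjusted p = 0.0771, limma FDR = 0.649). After OGD-R it was 161, 177 and 205 RPKM in Cort+/+ and 221 and 183 RPKM in Cort-/- BECs, with overlap and a log2 difference of 0.16 (SE 0.17, FDR = 0.978). The endothelial markers were higher in the same libraries, summing to 1137 to 1276 RPKM in Cort-/- and 870 to 1141 RPKM in Cort+/+ libraries under NX/NG. Taken relative to the mean log2 level of these 8 markers in each library, a scale chosen after seeing the data, the Mcam difference under NX/NG was 0.07 with overlapping groups. On that scale the NX/NG differences of Icam2 and Vcam1 were 0.0015 and 0.02, those of Icam1 and Sele -0.37 and -0.17 and that of Selp 0.19, all with overlap. Cd99l2 was then at -0.33 under NX/NG without overlap, and Alcam was at -0.95 under NX/NG and -0.67 after OGD-R, without overlap.

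CD99L2, which acts late, when leukocytes pass between endothelial cells and through the basement membrane, was the steadiest member. Cd99l2 was 14.2, 13.8 and 13.7 RPKM in Cort+/+ and 13.0 and 13.2 RPKM in Cort-/- BECs under NX/NG, and 13.8, 14.3 and 12.5 RPKM in Cort+/+ and 13.3 and 15.6 RPKM in Cort-/- BECs after OGD-R. The gap under NX/NG was small, a log2 difference of -0.08 (SE 0.05, limma FDR = 0.681), and the OGD-R value was 0.09 (SE 0.11, FDR = 0.978) with overlapping groups.

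**Figure D3:**
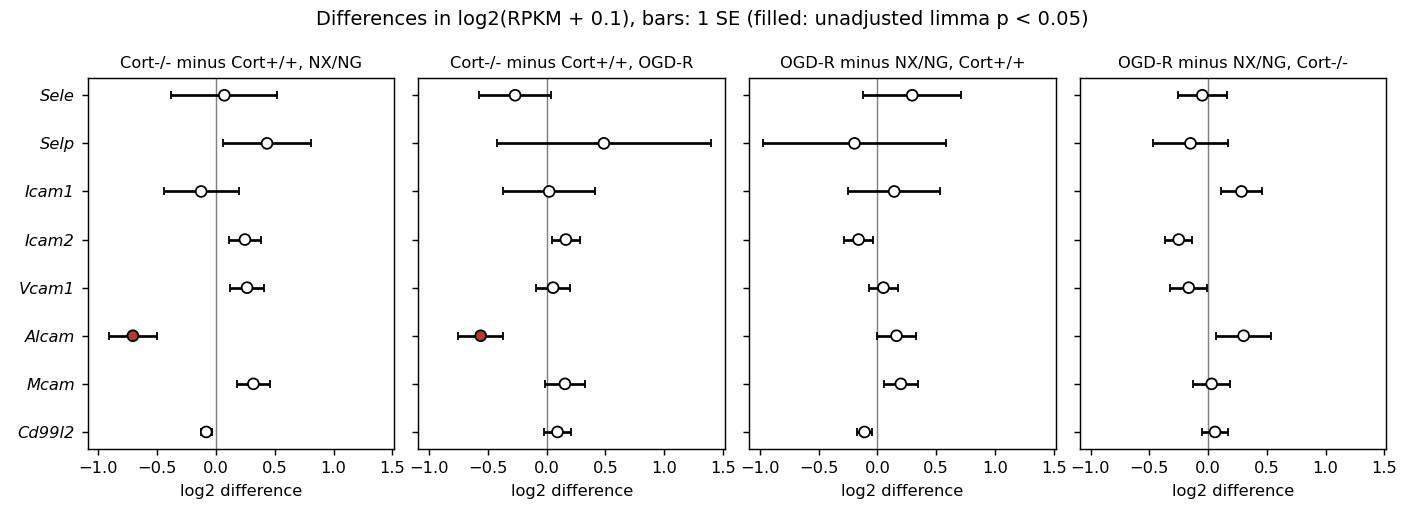
Difference in log2(RPKM + 0.1) of each member (x axis, bars 1 SE) in the 4 comparisons, with filled circles for an unadjusted limma p under 0.05. Alcam at -0.71 and -0.56 holds the filled circles, and Selp after OGD-R has the widest bar, an SE of 0.91.

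The second question was whether OGD-R, measured after 20 h of reoxygenation, left these transcripts raised or lowered. In Cort+/+ BECs limma called 0 of 8 members and none had an unadjusted p under 0.05, where 0.0332% of 27075 genes were called and 5.48% passed the unadjusted threshold. In Cort-/- BECs it was likewise 0 of 8 by either measure, where 0% of 26523 genes were called and 4.08% passed. limma-voom called 0 members in either genotype and placed none under an unadjusted p of 0.05. Groups did not overlap for Cd99l2 in Cort+/+ BECs, 1 of 8 members against 12.7% of 14450 genes, and for Icam2 in Cort-/- BECs, 1 of 8 against 34.2% of 13998 genes.

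The inducible molecules were not raised beyond their spread in RPKM at this time. In jointly scaled RPKM, Icam1 averaged 35.1 ± 13.7 under NX/NG and 39.6 ± 16.3 after OGD-R in Cort+/+ BECs (SD, n = 3 each), a log2 difference of 0.14 (SE 0.39, limma FDR = 0.991). It was 31.0 ± 4.38 and 37.8 ± 6.26 in Cort-/- BECs (SD, n = 2 each), a log2 difference of 0.28 (SE 0.17, FDR = 0.922). Sele differed by 0.30 (SE 0.42, FDR = 0.954) in Cort+/+ and -0.05 (SE 0.21, FDR = 0.998) in Cort-/- BECs, and Vcam1 by 0.05 (SE 0.13, FDR = 0.990) and -0.16 (SE 0.16, FDR = 0.922). Selp differed by -0.20 (SE 0.78, FDR = 0.999) in Cort+/+ BECs, a value that ran from -0.86 without OGD-R replicate 1 to 0.68 without OGD-R replicate 3. Relative to the endothelial markers, the scale chosen after seeing the data, Icam1 in Cort-/- BECs differed by 0.45 without overlap. In Cort+/+ BECs it differed by 0.17 with overlap, and Sele, Selp and Vcam1 overlapped in both genotypes. The share of all genes without overlap on that scale was not computed.

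The other members moved as little. Icam2 differed by -0.16 (SE 0.12) in Cort+/+ and by -0.25 (SE 0.12, limma FDR = 0.922) in Cort-/- BECs, where 47.4 and 52.3 RPKM under NX/NG stood clear of 44.8 and 39.1 RPKM after OGD-R. Mcam differed by 0.20 (SE 0.15) and 0.03 (SE 0.16), Alcam by 0.16 (SE 0.16) and 0.30 (SE 0.23), and Cd99l2 by -0.11 (SE 0.07) and 0.06 (SE 0.11). Relative to the endothelial markers, Mcam and Icam2 in Cort-/- BECs differed by 0.19 and -0.085 without overlap, and Alcam and Cd99l2 overlapped. In Cort+/+ BECs all of these members overlapped on that scale. The interaction of genotype and environment gave 0 of 8 members at an FDR of 0.05 and 0 at an unadjusted p under 0.05, by limma and by limma-voom, where limma called 0.011% and placed 2.85% of 27321 genes under the unadjusted threshold. For Alcam the change with OGD-R in Cort-/- minus that in Cort+/+ BECs was 0.14 (SE 0.30, FDR = 1.00), so its lower level in Cort-/- BECs was not shown to differ between environments.

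Ordered by mean level over the 4 groups, neighbouring groups overlapped for 7 of the 8 members at every step. In Alcam the order was Cort+/+ OGD-R, Cort+/+ NX/NG, Cort-/- OGD-R and Cort-/- NX/NG, at 8.98, 8.01, 6.05 and 4.91 RPKM. There the Cort+/+ NX/NG libraries, at 7.20 RPKM and above, stood clear of the Cort-/- OGD-R libraries, at 6.85 RPKM and below, and the other neighbours overlapped. The share of all genes with such a clear step was not computed, so the count of members has no background to be read against. Mcam ran from 197 RPKM in Cort-/- OGD-R and 192 RPKM in Cort-/- NX/NG to 177 RPKM in Cort+/+ OGD-R and 154 RPKM in Cort+/+ NX/NG.

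While neither genotype nor OGD-R separated them, Icam1, Sele and Selp were high and low in the same libraries. Of the 10 libraries, the 3 highest in each gene included Cort+/+ OGD-R replicate 1 and Cort+/+ NX/NG replicate 2, at 53.9 and 50.7 RPKM for Icam1, 3.00 and 3.02 RPKM for Sele and 13.5 and 9.76 RPKM for Selp. Cort+/+ NX/NG replicate 3 was lowest in Sele, at 1.10 RPKM, and Cort+/+ OGD-R replicate 3 was lowest in Icam1 and Selp, at 21.9 and 1.50 RPKM. These high and low libraries were all Cort+/+ and came from both environments. In Selp, however, Cort-/- OGD-R replicate 3 ranked between the 2 high ones, at 9.93 RPKM. Cort+/+ OGD-R replicate 1 and Cort-/- OGD-R replicate 3 are the libraries low in ribosomal RNA, and Cort+/+ NX/NG replicate 2 holds the most Krt8. The part of either in the pattern was not tested.

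Over the 10 libraries, on log2(RPKM + 0.1), Pearson's r of Icam1 with Sele was 0.847 (permutation p = 0.00165, 0.0231 after Benjamini-Hochberg over the 28 pairs of members) and Spearman's rho was 0.891 (permutation p = 0.00127, adjusted 0.0356). For Icam1 with Selp, r was 0.838 (permutation p = 0.00051, adjusted 0.0143) and rho was 0.830 (permutation p = 0.0047, adjusted 0.0439). For Sele with Selp, r was 0.621 (permutation p = 0.0600, adjusted 0.240) and rho was 0.782 (permutation p = 0.0112, adjusted 0.0786). Without the 2 libraries farthest from the median of the first gene named, r was 0.878, 0.747 and 0.449 in this order, so the last relation rests more on its extreme libraries. Taken as deviations from the 4 group means, r was 0.881, 0.955 and 0.741, and without the 2 libraries low in ribosomal RNA it was 0.812, 0.774 and 0.519. Over the 7 libraries with Krt8 under 1 RPKM it was 0.812, 0.897 and 0.629. The pattern was noticed in these data before it was tested on them, and 5 libraries in each environment are too few for a correlation of their own. The permutations shuffled all 10 libraries regardless of group.

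**Figure D4:**
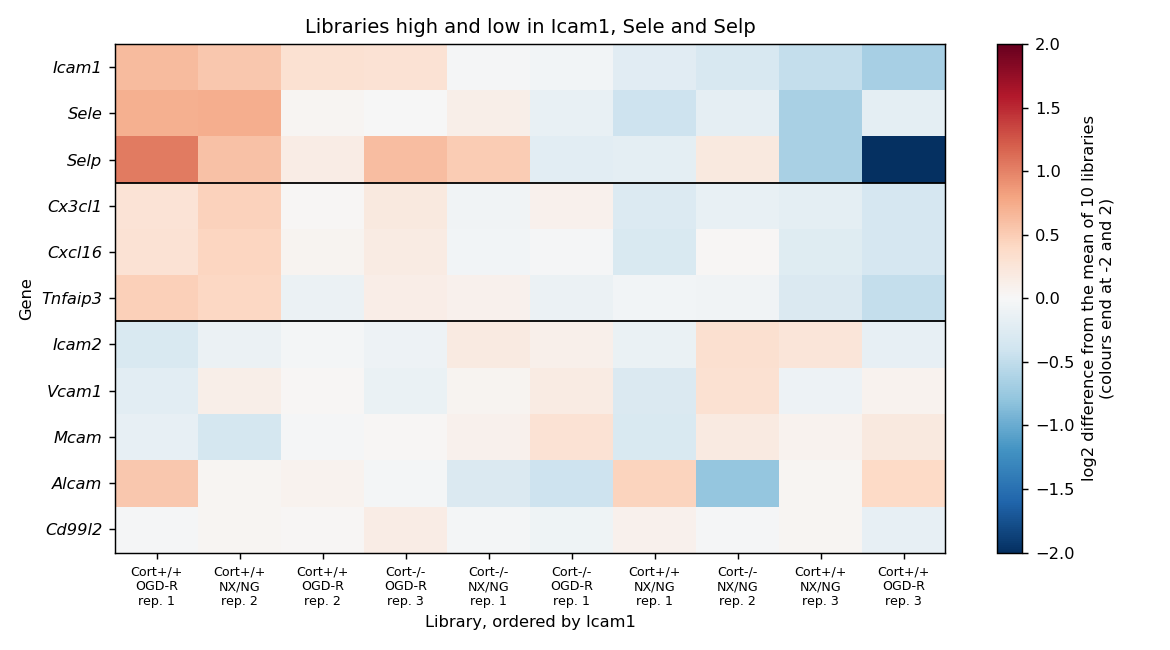
Difference of each gene from its mean over 10 libraries on the log2 scale (colour, ending at -2 and 2), with libraries on the x axis ordered by Icam1 and genes on the y axis. Icam1, Sele and Selp share red columns on the left and blue ones on the right. Cx3cl1, Cxcl16 and Tnfaip3, shown as the list genes with the highest r with Icam1, follow them in paler colours, over a smaller range. Other genes of their lists, not shown, did not follow, such as Ccl2 (r = -0.338) and Tlr4 (r = -0.702). Icam2, Vcam1, Mcam, Alcam and Cd99l2 do not follow that order.

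Alcam ran against Icam2 and Vcam1. Its r with Icam2 was -0.840 (permutation p = 0.00247, adjusted 0.0231) and rho was -0.855 (permutation p = 0.00281, adjusted 0.0393) over the 10 libraries, with an r of -0.892 without the 2 libraries farthest from the median of Icam2 and of -0.739 within groups. With Vcam1, r was -0.785 (permutation p = 0.00737, adjusted 0.0516) and rho was -0.685 (permutation p = 0.0342, adjusted 0.160), with an r of -0.553 without the 2 farthest libraries. This was not particular to these members. Other genes of endothelium ran against Alcam as well, with r of -0.966 for Ccl2, -0.878 for F11r, -0.860 for Esam and -0.747 for Cdh5. Jam3 and Mmp14 went with Alcam, at 0.829 and 0.773. The share of all genes with such an r was not computed.

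The sequences before the transcription starts of Icam1, Sele and Selp are shown because these 3 genes varied together. They are the 250 bases upstream of the annotated start, 5′ to 3′ on the gene's strand, from RefSeq on GRCm38.p6, which held an entry for 6 of the 8 members; Icam2 and Vcam1 were not among them. Capitals mark matches, on either strand, to TATAAA, to GGANNTTCC or to TTCCNGGAA, the last 2 chosen after the sequences had been read.
Icam1, chr9:21015690-21015939, plus strand: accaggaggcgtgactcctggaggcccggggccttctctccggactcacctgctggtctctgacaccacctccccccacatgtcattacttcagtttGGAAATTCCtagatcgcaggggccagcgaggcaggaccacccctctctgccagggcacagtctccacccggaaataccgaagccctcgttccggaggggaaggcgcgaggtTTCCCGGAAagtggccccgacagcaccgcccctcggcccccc
Sele, chr1:164047984-164048233, plus strand: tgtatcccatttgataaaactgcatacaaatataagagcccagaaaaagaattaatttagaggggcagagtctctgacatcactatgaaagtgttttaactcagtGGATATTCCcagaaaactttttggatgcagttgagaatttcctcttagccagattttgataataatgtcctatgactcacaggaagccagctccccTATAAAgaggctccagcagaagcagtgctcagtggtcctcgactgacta
Selp, chr1:164115014-164115263, plus strand: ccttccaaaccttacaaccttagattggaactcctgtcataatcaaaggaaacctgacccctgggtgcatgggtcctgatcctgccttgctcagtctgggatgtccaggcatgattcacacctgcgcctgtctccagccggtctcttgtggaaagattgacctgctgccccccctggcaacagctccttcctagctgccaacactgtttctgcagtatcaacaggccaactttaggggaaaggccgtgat
GGANNTTCC, a form of the sites that NF-kB binds, occurred in Icam1 from 153 to 145 bases before the start, where the letters match on both strands, and in Sele from 145 to 137 bases before the start. It is found in 3.59% of the 32851 mouse windows of this kind. TTCCNGGAA, the form bound by STAT factors, lay from 42 to 34 bases before the start of Icam1 and is found in 0.913% of windows, and TATAAA lay from 49 to 44 bases before the start of Sele and is found in 12.4%. The kappa-B consensus, found in 7.25% of windows, was in none of the 6 member windows. Selp, Alcam, Mcam and Cd99l2 had none of these letter strings in their windows, which says nothing of sites elsewhere.

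Among the genes most like each member over the 10 libraries, by Pearson's r on the log2 scale over 13789 genes, those of Icam1 were Aldh1l2 (r = 0.958), Gle1 (0.948) and Tead2 (0.939), and those of Sele were Hs6st1 (0.976), Pcdh7 (0.892) and Acer2 (0.887). The closest to Selp were Gm16587 (r = 0.984) and Gm16548 (0.979), which overlap Selp on the opposite strand in GENCODE vM21, and then Ptk2b (0.941). One of the 3 closest to Vcam1, Gm43109 (r = 0.930), likewise overlaps Vcam1 on the opposite strand, after Ivns1abp (0.966) and Fam3c (0.932). The paper names a stranded library kit, but whether the reads were counted by strand is not given in the sources used here. Reads of these genes and of their antisense partners thus cannot be told apart here, and the levels of Selp and Vcam1 carry that uncertainty. Mcam was closest to the angiogenic genes Angpt2 (r = 0.978) and Pdgfb (0.975) and to Rasa4 (0.970), and Alcam to Rai14 (0.973), the matrix proteoglycan Vcan (0.964) and Nipal1 (0.959). For Icam2 they were Gm45437 (r = 0.965), Pip4p2 (0.960) and Ywhah (0.959), and for Cd99l2 Gm15601 (0.944), Fam131a (0.921) and Pak1 (0.910).

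The molecules that act with the members were taken as lists of genes. Over all genes, an unadjusted p of 0.05 was passed by 1068 higher and 1445 lower in Cort-/- BECs under NX/NG, and by 511 and 508 after OGD-R. Over all tested genes of a list, the median log2 differences under NX/NG and after OGD-R were 0.28 and 0.14 for selectin partners, -0.05 and 0.04 for chemokines, 0.09 and 0.03 for NF-kB genes and 0.08 and 0.02 for docking components. They were 0.15 and 0.09 for junctional molecules, 0.10 and -0.02 for sheddases and -0.03 and 0.24 for counter-receptors, beside -0.01 over all genes in each environment. Of 10 selectin partners and sialomucins, proteins that carry selectin ligands, and the enzymes that make those ligands, 8 were tested under NX/NG, with 2 higher in Cort-/- at an unadjusted p under 0.05 and 0 called. Cd34, the sialomucin of endothelium and stem cells, was 43.1, 45.0 and 56.1 RPKM in Cort+/+ and 60.4 and 66.5 RPKM in Cort-/- BECs, a log2 difference of 0.41 (SE 0.13, limma FDR = 0.517), and Emcn had 0.36 (SE 0.12, FDR = 0.526). After OGD-R, Cd34 was again higher, by 0.37 (SE 0.11, FDR = 0.978), with 51.7 and 48.2 RPKM in Cort-/- against 34.6, 39.9 and 41.4 RPKM in Cort+/+ BECs. The list's highest genes were Emcn, Cd34 and Podxl, at means of 149, 48.9 and 38.6 RPKM over the jointly scaled libraries.

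Chemokines displayed on the endothelial surface arrest rolling leukocytes. Of 8 listed, 1 was higher in Cort-/- under NX/NG and 0 after OGD-R by the unadjusted p, and 0 were called in either. The monocyte chemokine Ccl2, the highest of the list with a mean of 280 RPKM, was 219, 256 and 290 RPKM in Cort+/+ and 310 and 377 RPKM in Cort-/- BECs under NX/NG, a log2 difference of 0.43 (SE 0.16, limma FDR = 0.564). It was followed by Cxcl12 at 85.4 RPKM and Cx3cl1 at 20.1 RPKM. Cx3cl1 and Cxcl16, the membrane-bound chemokines, rank with Icam1 over the libraries, with r of 0.912 and 0.901 across 10 libraries as a description. Of the 6 chemokines with a mean of at least 1 RPKM, 2 had an r of at least 0.7 with Icam1, and of 13789 genes at that level 485 did.

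Of 14 genes of the NF-kB pathway and its cytokine receptors, which drive adhesion molecule transcription, 1 was higher and 2 were lower in Cort-/- BECs under NX/NG at an unadjusted p under 0.05, and 1 was lower after OGD-R, with 0 called by limma in either. Tnfrsf1b, the second TNF receptor, stood far from the rest. It was 8.76, 8.31 and 10.2 RPKM in Cort+/+ and 2.69 and 3.09 RPKM in Cort-/- BECs under NX/NG, and from 10.1 to 13.7 RPKM in Cort+/+ against 3.93 and 2.65 RPKM in Cort-/- BECs after OGD-R, without overlap. The log2 differences were -1.62 (SE 0.12, limma FDR = 0.0803) and -1.80 (SE 0.22, FDR = 0.231). Tnfrsf1b lies on chromosome 4, as does the deleted gene Cort, and any part of that position in the difference was not tested.

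The remaining NF-kB genes differed less between genotypes. Tlr4, the receptor for bacterial lipopolysaccharide, was 7.77, 7.66 and 9.75 RPKM in Cort+/+ and 10.3 and 11.4 RPKM in Cort-/- BECs under NX/NG, a log2 difference of 0.38 (SE 0.13, limma FDR = 0.537) without overlap. The subunit Rel, at about 1 RPKM, had a log2 difference of -0.36 there without overlap (SE 0.20, FDR = 0.681), and both genes overlapped after OGD-R. Tnfrsf1a, the first TNF receptor, had a mean of 41.1 RPKM and a log2 difference of -0.12 (SE 0.05, limma FDR = 0.580) under NX/NG, and the inhibitor Nfkbia and the subunit Rela had means of 42.1 and 41.2 RPKM. In Cort+/+ BECs, 5 of the 14 were higher after OGD-R at an unadjusted p under 0.05 with 0 called, Rela by 0.26 (SE 0.07), Birc3 by 0.35 (SE 0.09), Irf1 by 0.26 (SE 0.07), Nfkb2 by 0.23 (SE 0.07) and Relb by 0.32 (SE 0.12). Over all genes, 814 of 27075 were higher at that threshold. In Cort-/- BECs 1 of the 14 was higher after OGD-R, beside 585 of 26523 genes. The interaction had 0 of the 14 under that p, beside 2.85% of 27321 genes. Tnfaip3, the NF-kB feedback inhibitor, and Il1r1 had an r of at least 0.7 with Icam1 over the 10 libraries, 0.894 and 0.714.

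Of 14 components of the endothelial docking structure, the actin-rich cup around adherent leukocytes, 1 was higher (Filip1l, 0.32, SE 0.12) and 1 lower (the tetraspanin Cd9, -0.26, SE 0.08) in Cort-/- BECs under NX/NG, and 0 differed after OGD-R at an unadjusted p under 0.05. Cav1, Flna and Msn led this list at means of 530, 350 and 313 RPKM. Of 16 junctional and transmigration molecules tested, 3 were higher and 2 lower under NX/NG and 1 higher and 1 lower after OGD-R, 0 of them called. Pvr, the poliovirus receptor at endothelial junctions, had means of 14.6 ± 1.36 RPKM (SD, n = 3) in the Cort+/+ and 19.6 ± 0.496 RPKM (SD, n = 2) in the Cort-/- group under NX/NG, a log2 difference of 0.43 (SE 0.09, limma FDR = 0.310). The scavenger receptor Stab1 was higher in both environments, by 0.33 (SE 0.05, FDR = 0.238) and 0.41 (SE 0.14, FDR = 0.978), and Jam3 was lower in both, with differences of -0.31 (SE 0.10, FDR = 0.505) and -0.32 (SE 0.12, FDR = 0.978). Cdh5, Pecam1 and Bsg had the highest means, 558, 197 and 185 RPKM.

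Of 7 sheddases and their inhibitor, which cut adhesion molecules from the surface, 2 were lower under NX/NG and 1 after OGD-R, with 0 called. Mmp14 had log2 differences of -0.48 (SE 0.14, limma FDR = 0.468) and -0.30 (SE 0.11, FDR = 0.978), and Timp3 of -0.60 (SE 0.13, FDR = 0.351) under NX/NG. The sheddases Adam10 and Adam15 had means of 46.6 and 39.9 RPKM. The leukocyte counter-receptors were mostly near 0, and of the 3 with a mean of at least 1 RPKM, Itgb1, Itga4 and Itga9, which are not restricted to leukocytes, Itga4 was higher in Cort-/- BECs after OGD-R by 0.50 (SE 0.14, FDR = 0.978).

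**Figure D5:**
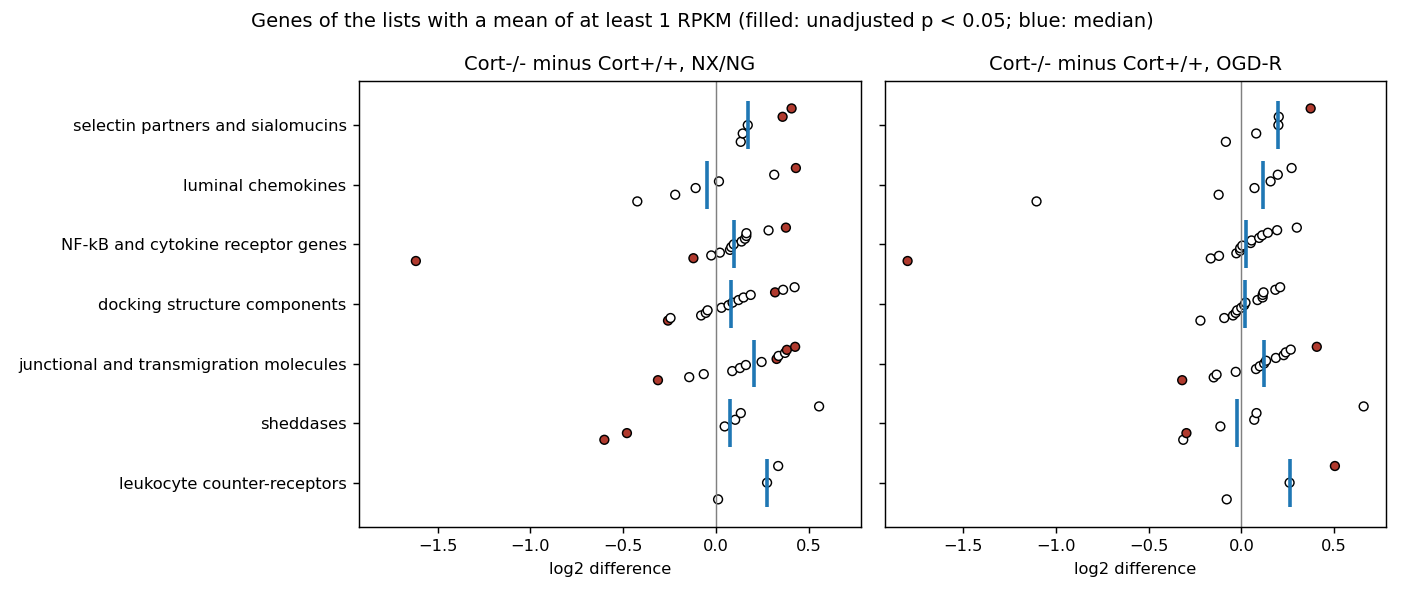
Difference in log2(RPKM + 0.1), Cort-/- minus Cort+/+ (x axis), of the genes of each list whose mean reached 1 RPKM (circles, filled at an unadjusted limma p under 0.05, blue line the median) under NX/NG and after OGD-R. Tnfrsf1b at -1.62 and -1.80 is the circle farthest from 0 in each environment.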

How the data were processed

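RNA-seq values of 10 libraries were analysed in 4 groups taken from the labels. RPKM, as deposited by the authors, are reads per kilobase of gene length relative to library size, scaled per environment; the submitters' processing notes name edgeR, and the aligner, counter, build and strand setting are not given in the sources used here. The columns of the authors' own comparisons (fold changes, p-values) were not used. Values were whole reads within 0.05 for 99.996% to 100% of genes, and were recovered as reads, 12386048 to 12390428 per library. These totals are below the paired-end reads that the methods state.

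Each comparison was fitted on log2(RPKM + 0.1), where the added 0.1 understates changes of low genes. The fits used limma 3.58.1 in R 4.3.3, moderated by empirical Bayes with a trend in mean level. Benjamini-Hochberg adjustment covered all genes with a value above 0, with a threshold of 0.05. Genotypes were compared within each table. Environments and the interaction used the 27321 genes of both tables, with joint scaling over the 10 libraries (trimmed mean of M values). The fits were tested on simulated data. No 2 libraries agreed within sampling noise. The members are defined by symbol and not by a measured value, but they and the gene lists were chosen with earlier results of these data known. Beside the members, the text names list genes past an FDR of 0.05, or at an unadjusted p under 0.05 with a log2 difference of at least 1 and a mean of at least 1 RPKM, the 3 highest genes of each list, and the 3 genes most like each member; other list genes at an unadjusted p under 0.05, and Cxcl16, Tnfaip3, Il1r1, Pdgfra, Myh11, Cnn1 and Rel, were named after their values were seen. The paper leaves Cort+/+ OGD-R replicate 1 out of its heatmaps; it was kept here, and results without it are given. Alternatives were a pseudocount of 1, a filter of 1 RPKM in 2 libraries, quantile normalization, limma-voom, scaling without ribosomal RNA, the deposited RPKM, omission of the libraries low in ribosomal RNA, one fit of all groups, the replicate block and each replicate left out; limma-voom without Cort+/+ OGD-R replicate 1 and values relative to endothelial markers were added after seeing the data. Permutation p-values used 100000 permutations, which shuffled the 10 libraries across the 4 groups. Differences between groups thus enter these p-values, and the r within groups was given no p-value. Promoter sequences come from RefSeq on GRCm38.p6.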

Additional observations from a re-analysis of the deposited data

How the results depend on the processing

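The call did not change for any member: in every alternative run for the 5 comparisons, 0 of the 8 reached the FDR of 0.05. Of 352 values of members under alternatives that kept every replicate or dropped a library with a second choice, 336 kept their direction and 16 reversed; of 240 values with 1 replicate left out, 35 reversed. Where an arm was left with 1 library, that library was assumed to vary like the others. The cause of these changes was not tested. Each group has 2 or 3 libraries, and at 12386048 reads on genes or more per library, depth limits Sele most.

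Between genotypes, Sele under NX/NG reversed to -0.20 with the replicate block and to -0.17 relative to the endothelial markers. After OGD-R, Cd99l2 reversed to -0.0074 without the libraries low in ribosomal RNA and to -0.020 relative to the endothelial markers, Icam1 to -0.091 and Vcam1 to -0.058 relative to those markers, and Vcam1 to -0.031 and Sele to 0.0034 with limma-voom without Cort+/+ OGD-R replicate 1. Between environments, Icam1 in Cort+/+ BECs reversed to -0.13 without the libraries low in ribosomal RNA and to -0.14 with limma-voom without Cort+/+ OGD-R replicate 1. In Cort-/- BECs, Cd99l2 reversed to -0.056 without the libraries low in ribosomal RNA, Sele to 0.025 on the deposited RPKM and to 0.12 relative to the endothelial markers, and Selp to 0.014 relative to those markers. The interaction reversed to -0.031 for Selp with a pseudocount of 1 and to -0.0095 for Alcam with the replicate block.

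With each replicate left out in turn, values that changed sign ran as follows. Under NX/NG, Cort-/- minus Cort+/+, Icam1 ran from -0.34 to 0.17 and Sele from -0.20 to 0.49. After OGD-R, Icam1 ran from -0.36 to 0.29, Selp from -0.39 to 1.15, Vcam1 from -0.090 to 0.20 and Cd99l2 from -0.024 to 0.21. With OGD-R in Cort+/+ BECs, Icam1 ran from -0.13 to 0.52, Selp from -0.86 to 0.68 and Vcam1 from -0.047 to 0.16. With OGD-R in Cort-/- BECs, Cd99l2 ran from -0.056 to 0.17, Mcam from -0.10 to 0.16, Sele from -0.20 to 0.10 and Selp from -0.56 to 0.26. The interaction ran from -0.10 to 0.38 for Alcam, from -0.24 to 0.41 for Icam1, from -0.21 to 0.0085 for Icam2 and from -0.83 to 0.71 for Selp.

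Members at an unadjusted p under 0.05 between genotypes numbered 1 under NX/NG, 4 with limma-voom, 3 with the replicate block and 0 to 3 with a replicate left out. After OGD-R they numbered 1, and 0 with the replicate block or without the libraries low in ribosomal RNA, 0 to 1 with a replicate left out and 2 with limma-voom without Cort+/+ OGD-R replicate 1. With OGD-R in Cort+/+ BECs they numbered 0, 0 to 1 with a replicate left out and 1 with limma-voom without Cort+/+ OGD-R replicate 1; the interaction had 0, and 0 to 1 with a replicate left out. Whether the replicate numbers pair the libraries is not settled by these data. As deviations from the group means, same-numbered Cort+/+ libraries of the 2 environments correlated at -0.059, -0.074 and 0.185. Those with unlike numbers correlated at -0.24 to 0.242. In Cort-/- BECs the environments share 1 number, which allows no block fit. The replicate block changed no call of a member. The share of all genes under the unadjusted p is given for the main limma fits only. Counts of members at that p under the alternatives thus have no background beside them.

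Over all genes, limma called 0 between genotypes under NX/NG, 20 with a pseudocount of 1, 124 with limma-voom, 4 with all groups in one fit and 0 to 683 with a replicate left out. After OGD-R it called 0, 5 with limma-voom, 6 with limma-voom without Cort+/+ OGD-R replicate 1, 7 with all groups in one fit and 0 to 710 with a replicate left out; in both environments the high counts came with a Cort-/- library left out. With OGD-R in Cort+/+ BECs it called 9, 5 with a pseudocount of 1, 1 with limma-voom and 0 with a filter of 1 RPKM in 2 libraries, without the libraries low in ribosomal RNA, with all groups in one fit, with the replicate block or with any replicate left out. The interaction called 3, 0 with a pseudocount of 1, that filter, limma-voom, the replicate block or without the libraries low in ribosomal RNA, and 0 to 8 with a replicate left out.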

Other observations

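Genes that mark venous and lymphatic endothelium also differed between libraries. Of the 5 listed, 1 (Lyve1) had a positive and 4 a negative genotype difference in each environment. The venous regulator Nr2f2 had a log2 difference, Cort-/- minus Cort+/+, of -0.86 (SE 0.15, limma FDR = 0.253) under NX/NG and -0.42 (SE 0.10, FDR = 0.801) after OGD-R. Lyve1, a receptor for hyaluronan on lymphatic endothelium and some macrophages, went the other way without overlap in both environments. It was 2.11 and 2.64 RPKM in Cort-/- against 1.36 to 1.87 RPKM in Cort+/+ libraries under NX/NG, a log2 difference of 0.59 (SE 0.20, limma FDR = 0.534), and 2.13 RPKM in both Cort-/- libraries against 1.42 to 1.89 RPKM after OGD-R, a difference of 0.36 (SE 0.19, FDR = 0.978). Vwf, the von Willebrand factor that shares storage granules with P-selectin in endothelium, was higher after OGD-R than under NX/NG in Cort+/+ BECs by 0.57 (SE 0.24, limma FDR = 0.881) and in Cort-/- BECs by 0.37 (SE 0.08, FDR = 0.816). Prox1 and Ackr1, at lower levels, lay below the whole Cort+/+ range in each Cort-/- library under NX/NG. Their Cort-/- means there were 0.0381 and 0.141 RPKM, against Cort+/+ means of 0.0583 and 0.654 RPKM. After OGD-R their means were again lower, at 0.0175 and 0.304 RPKM against 0.0392 and 0.580 RPKM, but with overlap. None of the named markers passed correction over all genes. The 5 markers of the list summed to 14.6 to 14.8 RPKM in Cort-/- and 14.7 to 22.6 RPKM in Cort+/+ libraries under NX/NG, and to 19.0 to 19.6 RPKM and 21.7 to 28.6 RPKM after OGD-R.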
